A study of Mus musculus with 8 samples.

Results

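Axon guidance receptors and ligands were examined in microglia of mice with a conditional deletion of Qk, which encodes the RNA-binding protein Quaking. The group holds 42 protein-coding genes of the plexin, neuropilin, semaphorin, netrin, UNC5, ROBO, SLIT, Eph and ephrin families, chosen by gene name and by a mean signal of at least 50. Mean signal is the authors' deposited average over the 8 libraries after scaling for depth. The names matched 71 of the 46983 genes in the table when any level was allowed, and 29 of them fell below the limit. By role, the members were all 11 plexins and neuropilins, 14 of 20 semaphorins, 7 of 17 netrin and slit receptors and ligands, 6 of 14 Eph receptors, 3 of 8 ephrins, and Unc50, whose name fits the pattern although it does not encode an UNC5 receptor. All 42 members passed the filter on low values. Efna1 and Ephb6 lay just inside the limit with mean signals of 50.6 and 50.5, and Efnb3 and Robo2 just outside it with 43.7 and 43.0.

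The libraries were made from total RNA of microglia, the brain's own macrophages, taken from the corpus callosum of FvB/C57BL6 hybrid mice. The Qk-KO mice were Cx3cr1-CreER; QKLoxP/LoxP and the WT mice Cx3cr1-CreER; QKLoxP/+, so the WT mice also carried the Cre and 1 floxed Qk allele. Cx3cr1 drives this tamoxifen-inducible Cre in microglia and in other macrophages. All mice received tamoxifen at 8 weeks of age and then 0.2% cuprizone, a copper chelator that causes loss of oligodendrocytes and myelin, for 6 weeks. The sample names give 4 Qk-KO and 4 WT libraries, but the genotype field contradicts the name of 4 of the 8: named Qk-KO 1 and 3 are WT in that field, and named WT 2 and 3 are Qk-KO. Libraries are called by name here, and both groupings were tested. The authors' fold changes follow the names, with r = 0.9997 across 5232 of the 46983 genes by name and 0.0460 by genotype field. Sizes for single members can still differ from the differences fitted here. The authors' log2 fold changes were smaller for Plxnb1 (-0.46 against -0.95), Ephb1 (-0.63 against -1.06) and Sema3g (-0.50 against -0.79). They were larger for Unc5a (0.90 against 0.74) and Sema3f (-0.77 against -0.65). The labels do not say whether each library is a separate animal, so p-values measure the spread between libraries, which may be technical.

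Semaphorins signal through plexins, with neuropilins as co-receptors for the secreted class 3 semaphorins. Netrins bind UNC5 receptors, slits bind ROBO receptors, and ephrins bind Eph receptors on neighbouring cells. These pathways steer growing axons by changing the cytoskeleton through small GTPases, and they also act in blood vessels and immune cells.

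Qk, the gene targeted, did not separate the groups. Its log2 values were 15.59, 15.40, 15.69 and 15.29 in named Qk-KO libraries 1 to 4, against 15.50, 15.38, 15.41 and 15.37 in named WT libraries 1 to 4. The difference was 0.08 ± 0.09 (SE, n = 4 each) by limma, with an adjusted p of 0.819. By genotype field it was -0.16 ± 0.08 (SE, n = 4 each), with an unadjusted p of 0.0587 and an adjusted p of 0.9995 by limma. Reads outside the floxed exons need not show a deletion, and reads by exon were not examined. Relative depth, recovered from genes seen in a single library, was 0.898, 0.997, 0.753 and 0.831 in named Qk-KO 1 to 4 and 1.26, 1.17, 1.05 and 1.21 in named WT 1 to 4. Every named Qk-KO library was therefore shallower than every named WT library. The part of depth in the differences by name was not tested. The microglia markers were abundant in every library, with a mean log2 value of 15.6 to 15.8 in named Qk-KO and 15.9 to 16.1 in named WT libraries. Differences were negative in 10 of 12 of these markers, against 51.2% of all genes. In these bulk samples fewer cells of a type and less RNA per cell cannot be told apart.

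Promoters of 3 members are shown because they span the patterns that follow: Unc5a, higher in named Qk-KO; Plxnb2, the member with the highest level; and Robo4, a ROBO receptor of endothelial cells and among the members with the largest negative differences. They are RefSeq sequences of 300 bases around the gene start on GRCm38.p6, at chr13:54949161-54949460 on the plus strand, chr15:89180739-89181038 on the minus strand and chr9:37401722-37402021 on the plus strand. Capitals mark the GC box GGGCGG on either strand, and neighbouring matches may share a base.
Unc5a: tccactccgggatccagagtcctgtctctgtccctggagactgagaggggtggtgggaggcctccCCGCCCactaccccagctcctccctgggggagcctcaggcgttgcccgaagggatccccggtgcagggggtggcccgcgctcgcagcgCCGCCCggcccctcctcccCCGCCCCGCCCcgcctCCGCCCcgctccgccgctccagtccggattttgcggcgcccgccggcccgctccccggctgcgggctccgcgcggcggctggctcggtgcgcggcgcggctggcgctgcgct
Plxnb2: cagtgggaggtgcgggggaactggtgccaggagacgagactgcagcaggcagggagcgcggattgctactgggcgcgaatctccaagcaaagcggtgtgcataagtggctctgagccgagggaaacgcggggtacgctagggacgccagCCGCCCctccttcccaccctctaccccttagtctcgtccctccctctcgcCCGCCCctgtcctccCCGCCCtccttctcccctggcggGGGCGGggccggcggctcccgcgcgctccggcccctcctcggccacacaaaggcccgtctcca
Robo4: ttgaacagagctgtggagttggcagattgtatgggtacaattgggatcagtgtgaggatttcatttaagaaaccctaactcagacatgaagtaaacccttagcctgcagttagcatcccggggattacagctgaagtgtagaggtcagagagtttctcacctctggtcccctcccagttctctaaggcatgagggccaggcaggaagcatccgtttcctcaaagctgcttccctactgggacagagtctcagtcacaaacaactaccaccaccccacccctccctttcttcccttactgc
The Unc5a promoter held 5 GC boxes and 37 CpG, Plxnb2 held 4 and 27, and Robo4 held 0 and 2. RefSeq promoters matched 35 of the 42 members, and 29 of the 35 (82.9%) held a GC box, against 60.5% of 11791 protein-coding genes tested. GAGGAAGT, a site of PU.1, the macrophage transcription factor, was in 0 of the 35 on either strand and in 3.05% of the 11791. With a share this low, 35 promoters are too few to tell 0 from it.

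Quaking binds RNA at ACTAAC or ACTAAT (written as DNA), so 3′ UTRs were searched on the transcript strand, in the annotated transcript with the longest 3′ UTR (GENCODE M21). A match stood in 12 of 42 members (28.6%), against 33.8% of 15517 protein-coding genes. Plxna1, Unc5a and Sema3f, the members called in the authors' deposited table, held 0 in 3062, 1047 and 929 bases. A match was present in 60.4%, 28.6% and 25.8% of 3′ UTRs of like length. Windows of 30 bases are printed for Plxnc1, a semaphorin receptor, and for Efnb2, a transmembrane ephrin. At their lengths a match was also common, in 49.4% of 3′ UTRs like that of Plxnc1 and 61.5% of those like that of Efnb2. The motif is in capitals and the UTR position of the match is in the name.
Plxnc1 397: aagaaaggggatACTAACaaagctcagagt
Plxnc1 572: tttaaaccaaaaACTAACagtgttgcaaca
Plxnc1 1932: gtgtgaagattcACTAATgtatgtagtgtg
Efnb2 1415: tgaaagatttttACTAATatatattttaag
Efnb2 was singled out after its values were seen.

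A plexin and a neuropilin led the levels. Per kilobase of exon, Plxnb2, a receptor for class 4 semaphorins, had a mean signal of 7796, above 98.5% of 15881 protein-coding genes. Nrp1, a co-receptor for class 3 semaphorins and VEGF, followed with 3229 per kb, and Sema4d, a ligand of Plxnb1 and Plxnb2, with 2604 per kb. Sema4c had 1098, Plxnd1 835, Nrp2 707 and Plxnc1 613 per kb. Plxna1 stood far lower with 108 per kb, and Unc5a and Sema3f were near the low end with 17.4 and 18.3 per kb. At the relative depths above, a gene with the Unc5a mean signal of 72.5 in every library would have about 55 reads in the shallowest and 91 in the deepest. Unc5a itself varied between libraries, so these are not its own read counts.

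**Figure D1:**
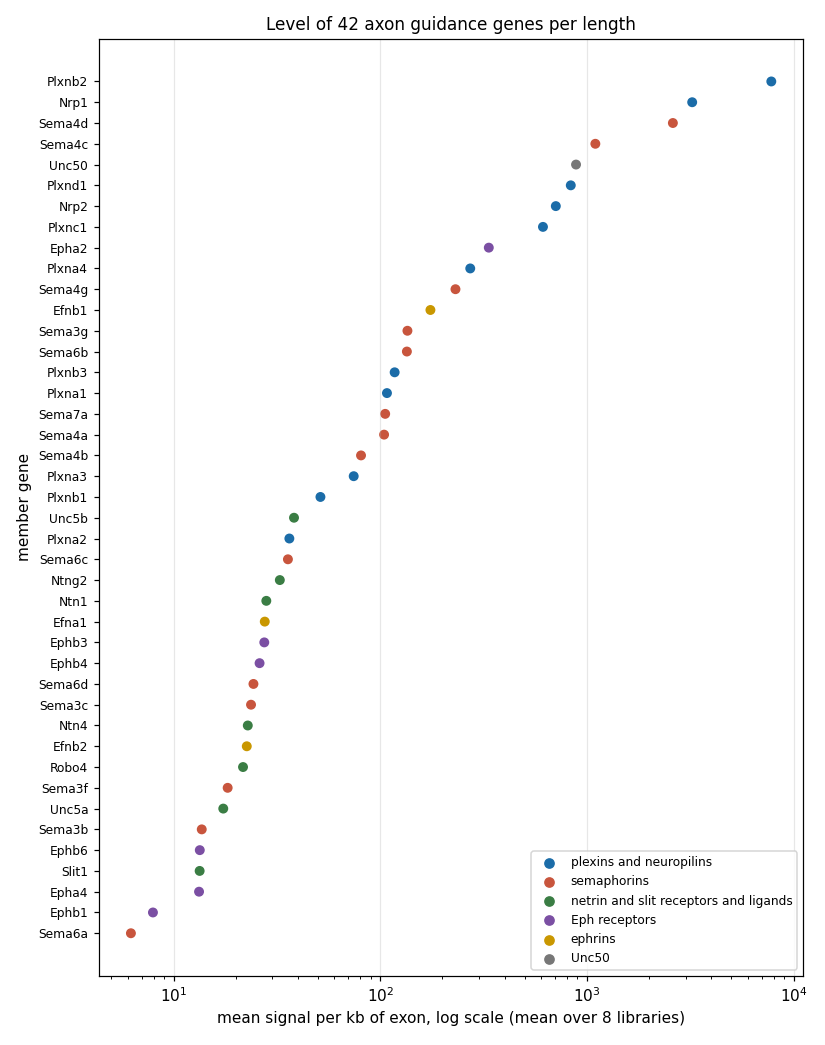
Mean signal per kb of exon (log axis, mean over 8 libraries) of each of the 42 members, coloured by role. Plxnb2, Nrp1 and Sema4d lie highest, between 2604 and 7796, and Ephb1 and Sema6a lowest.

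Plxna1, Unc5a and Sema3f were the only members past the threshold in the authors' deposited table (adjusted p under 0.05), where 1.22% of 14150 genes were called, 0.551% higher and 0.671% lower. Plxna1, a plexin that acts with TREM2 and DAP12 in myeloid cells, lies at chr6:89316314-89362620 on the minus strand (GENCODE M21 on GRCm38, as are the gene positions that follow). Its log2 values were 10.40, 10.04, 10.52 and 10.21 in named Qk-KO 1 to 4, against 9.49, 9.63, 9.35 and 9.11 in named WT 1 to 4. The groups did not overlap. It averaged 10.29 ± 0.21 in named Qk-KO and 9.39 ± 0.22 in named WT libraries (SD, n = 4 each), a difference of 0.90 ± 0.13 (SE; 95% interval 0.60 to 1.20). The adjusted p by limma was 0.255, while the authors' deposited table gives a log2 fold change of 0.92 ± 0.15 (SE) and an adjusted p of 3e-06.

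Unc5a, a netrin receptor at chr13:54949411-55006018 on the plus strand, had log2 values of 6.31, 6.62, 6.58 and 6.39 in named Qk-KO 1 to 4, against 5.83, 5.66, 5.72 and 5.74 in named WT 1 to 4. Every named Qk-KO library was above every named WT library. The difference was 0.74 ± 0.15 (SE, n = 4 each), with an adjusted p of 0.286 by limma and 0.00323 in the authors' deposited table. Exons of Unc5a overlap exons of Hk3, a hexokinase gene on the opposite strand with a mean signal of 7464. No source used here says whether counting used strand, so reads of the pair may not be told apart. Hk3 itself differed by -0.01 (adjusted p 0.982 by limma).

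Sema3f, a secreted ligand of Nrp2, lies at chr9:107681500-107710475 on the minus strand. Its log2 values were 6.06, 6.04, 6.39 and 6.23 in named Qk-KO 1 to 4, against 7.02, 7.01, 6.57 and 6.72 in named WT 1 to 4. All named Qk-KO libraries lay below the named WT libraries. The difference was -0.65 ± 0.17 (SE, n = 4 each), with an adjusted p of 0.389 by limma and 0.0360 in the authors' deposited table.

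**Figure D2:**
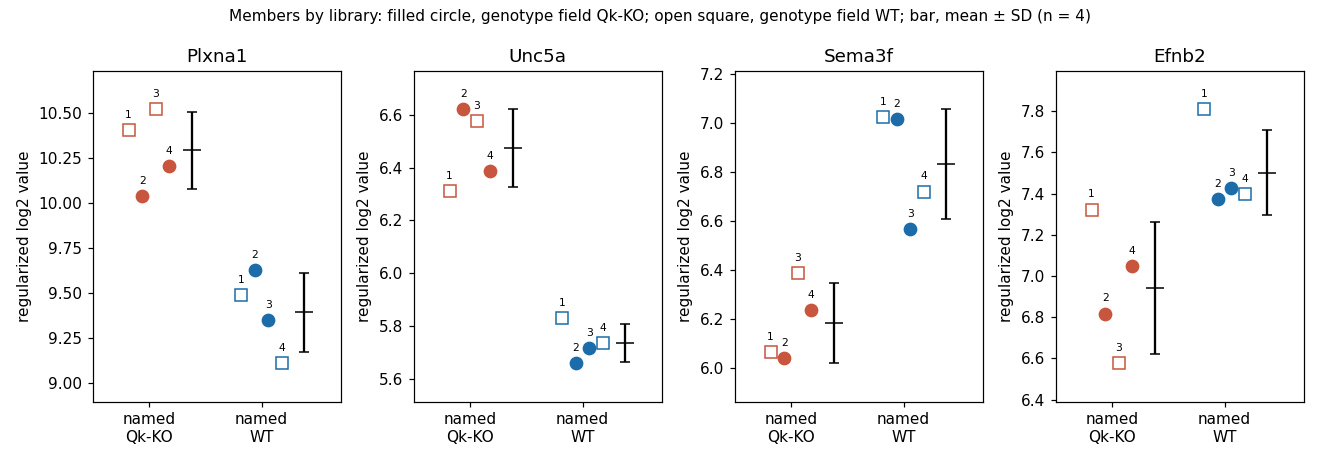
Log2 values in each library of Plxna1, Unc5a and Sema3f, called in the authors' deposited table, and of Efnb2, which was not called. Named Qk-KO is left of named WT. Filled circles are Qk-KO and open squares WT in the genotype field, and bars are mean ± SD. Plxna1 and Unc5a are higher and Sema3f and Efnb2 lower in all 4 named Qk-KO libraries, with no overlap.

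No member passed adjusted p under 0.05 by limma, where 0.00444% of the 22546 genes tested passed. At an unadjusted p under 0.05 there were 4 members, against 8.26% of all genes (3.76% higher, 4.5% lower): Plxna1 and Unc5a were higher, and Sema3f and Efnb2 lower, in named Qk-KO. In the same 4 the groups did not overlap, against 5.73% of all genes (3.04% higher, 2.7% lower). Efnb2, singled out after its values were seen, had 7.32, 6.82, 6.58 and 7.05 in named Qk-KO 1 to 4 and 7.81, 7.37, 7.43 and 7.40 in named WT 1 to 4. It differed by -0.56 ± 0.19 (SE), with an adjusted p of 0.485 by limma and 0.181 in the authors' deposited table. The difference was negative in 32 of 42 members, against 51.2% of all genes, and the median was -0.17, against 0.00 over all genes. With each library centred on its median gene the members' median was -0.10, against 0.07 over all genes, and with a mean signal limit of 200 it was -0.09. Among the 13754 tested genes with a mean signal of at least 50, the level the members had to reach, 10.1% had an unadjusted p under 0.05, the groups did not overlap in 6.88%, and 48.2% of differences were negative.

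**Figure D3:**
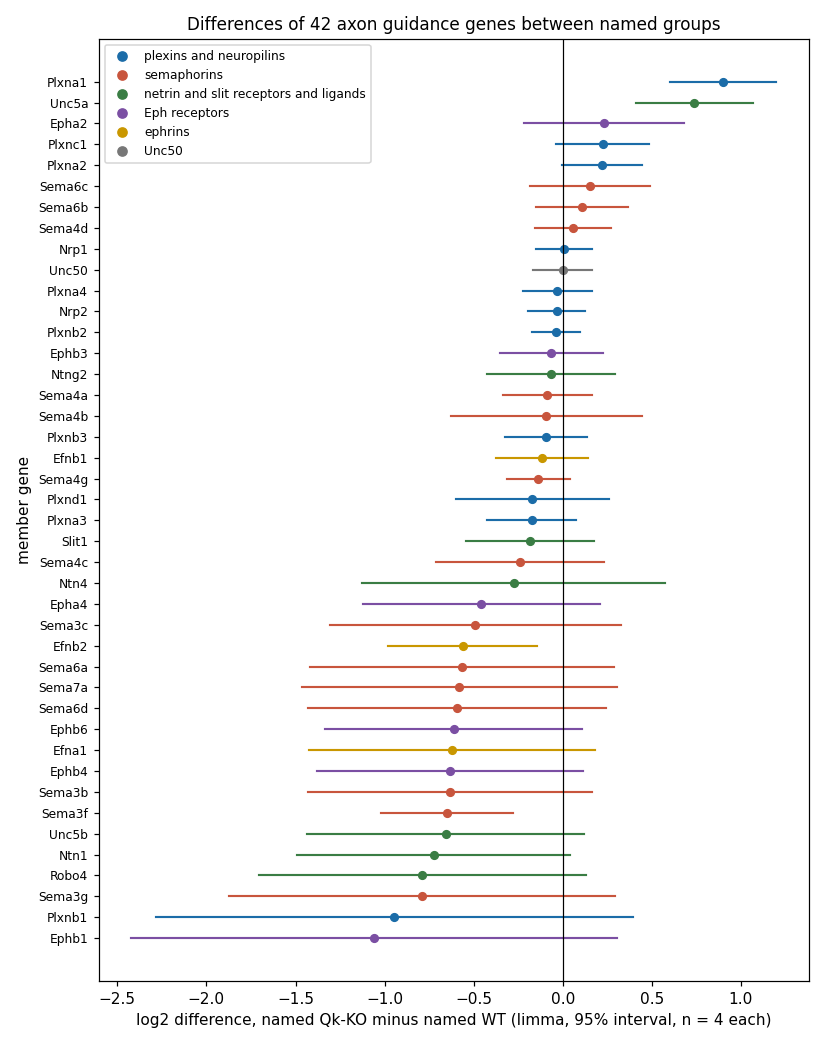
Fitted log2 difference, named Qk-KO minus named WT, with its 95% interval (limma, n = 4 each), for the 42 members coloured by role. The intervals of Plxna1 and Unc5a lie above 0, and those of Sema3f and Efnb2 below it.

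Among plexins and neuropilins, 7 of 11 differences were negative and the median was -0.03. Plxnb2 had 15.98, 15.77, 15.85 and 15.83 in named Qk-KO 1 to 4, against 15.79, 15.91, 15.92 and 15.95 in named WT 1 to 4. The groups overlapped. The abundant receptors had small differences: Plxnb2 differed by -0.04 (95% interval -0.17 to 0.10), Nrp1 by 0.01 (-0.15 to 0.17) and Nrp2 by -0.03 (-0.20 to 0.13). Plxnc1, which binds Sema7a, differed by 0.22 (-0.04 to 0.48), Plxnd1 by -0.17 and Plxna4 by -0.03. Plxnb1, a receptor for Sema4d, had the lowest value of the class at -0.95 (-2.28 to 0.39), with 8.06, 7.91, 6.96 and 9.80 in named Qk-KO 1 to 4 and 9.38, 8.59, 8.81 and 9.73 in named WT 1 to 4. Named Qk-KO 4 was its highest library.

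Among semaphorins 11 of 14 differences were negative, with a median of -0.36. Sema4d differed by 0.06, Sema4c by -0.24 and Sema4g by -0.14. Sema3g, a class 3 semaphorin of vessels, differed by -0.79 (adjusted p 0.686 by limma), with 8.15, 8.39, 8.09 and 10.01 in named Qk-KO 1 to 4 and 9.87, 9.77, 8.68 and 9.48 in named WT 1 to 4. Sema3b differed by -0.63. In the netrin and slit class 6 of 7 were negative, with a median of -0.28. Robo4 had 6.37, 5.38, 6.03 and 7.19 in named Qk-KO 1 to 4, against 7.66, 7.18, 6.22 and 7.05 in named WT 1 to 4, and the ligand Ntn1 had 6.34, 6.80, 6.72 and 7.96 against 7.90, 7.95, 7.09 and 7.77. In both genes named Qk-KO 4 was the highest of its group and the groups overlapped. Robo4 differed by -0.79, the ligand Ntn1 by -0.72 and the netrin receptor Unc5b by -0.66, with adjusted p-values of 0.660, 0.625 and 0.661 by limma. Unc50 differed by 0.00.

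Differences of Eph receptors were negative in 5 of 6, with a median of -0.53 and none past the unadjusted threshold. Epha2, the most abundant, differed by 0.23 (95% interval -0.22 to 0.68). Ephb1 had 4.90, 3.86, 3.92 and 6.43 in named Qk-KO 1 to 4 and 6.25, 5.02, 5.47 and 6.62 in named WT 1 to 4, a difference of -1.06 (-2.42 to 0.30). Ephb6, which lacks kinase activity, differed by -0.61. The 3 ephrins were all negative, with Efnb1 at -0.12 and Efna1 at -0.62.

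By genotype field no member was called by limma (smallest adjusted p 0.9995), and 0.0% of all genes were. At an unadjusted p under 0.05 there were 3 members, against 2.67% of all genes (1.28% higher, 1.39% lower). Differences were negative in 21 of 42 members, against 49.3% of all genes, and the median was 0.02. Plxnd1 differed by 0.44 (95% interval 0.16 to 0.72), averaging 12.76 ± 0.18 in field Qk-KO and 12.33 ± 0.23 in field WT libraries (SD, n = 4 each). Ephb6 had 5.68, 5.91, 6.01 and 6.07 in field Qk-KO libraries (named Qk-KO 2 and 4, named WT 2 and 3), against 4.61, 4.66, 5.56 and 5.66 in field WT libraries (named Qk-KO 1 and 3, named WT 1 and 4). It differed by 0.80 (0.18 to 1.42), with 5.92 ± 0.17 in field Qk-KO and 5.12 ± 0.57 in field WT. Sema4c had 11.85, 11.63, 12.37 and 12.31 in field Qk-KO libraries, against 12.53, 12.57, 12.38 and 12.49 in field WT libraries. It differed by -0.45 (-0.80 to -0.10), with 12.04 ± 0.36 in field Qk-KO and 12.49 ± 0.08 in field WT. The groups did not overlap for Ephb6 and Sema4c, against 1.85% of all genes (0.931% higher, 0.923% lower). Plxna1 differed by -0.07 and Unc5a by -0.02 in this grouping.

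Variation between libraries was uneven. In 20 members the range over the 8 libraries exceeded 1 on the log2 scale, a limit set after the values were seen, against 22.0% of all genes and 17.6% of those with a mean signal of at least 50. They included 19 of 31 members with a mean signal of 50 to 1000 and 1 of 11 with at least 1000, Epha2. Of these 20, 18 had negative differences, against 57.8% of the 2420 genes with a mean signal of at least 50 and a range above 1. The range is set by the same libraries, so both counts over the 20 are descriptions only. Their mean log2 value was 6.96, 6.83, 6.59 and 7.97 in named Qk-KO 1 to 4, against 7.79, 7.60, 7.25 and 7.69 in named WT 1 to 4. Named Qk-KO 4 was the highest of the named Qk-KO libraries in 17 of the 20, against 48.4% of those 2420 genes. It was the highest in 21 of all 42 members, against 32.5% of all genes and 30.7% of those with a mean signal of at least 50. The other 22 members had means of 10.14 to 10.27 in named Qk-KO and 10.20 to 10.27 in named WT libraries.

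**Figure D4:**
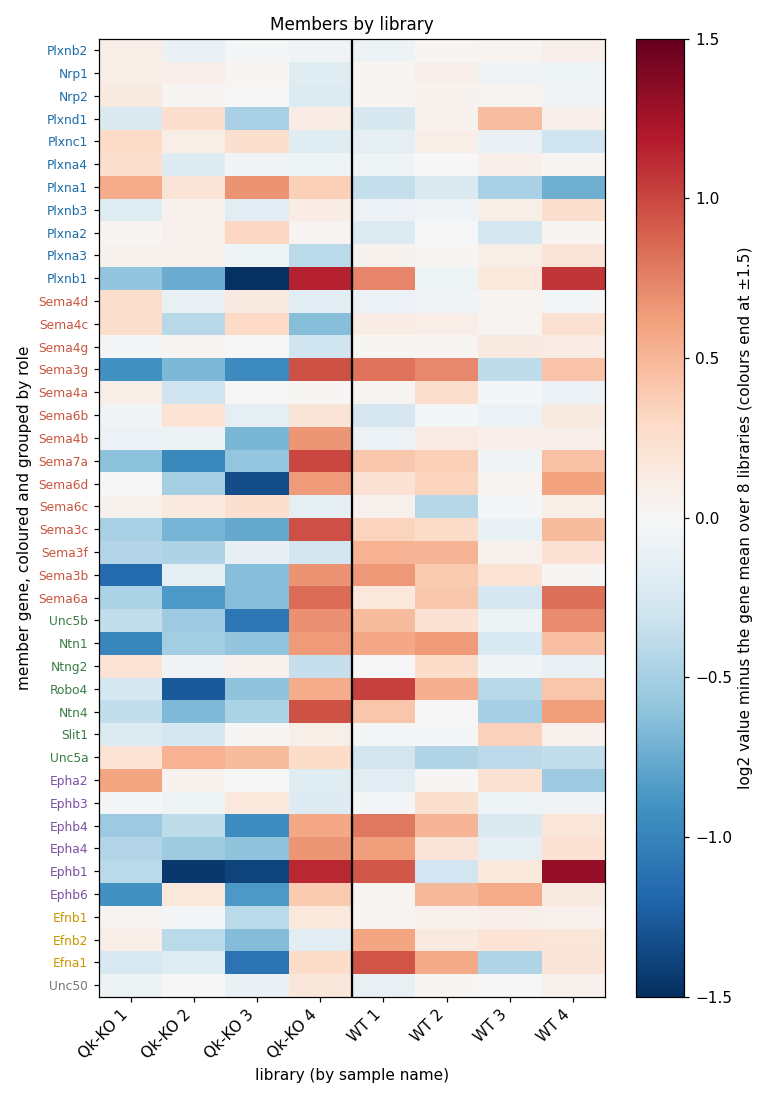
Log2 value of each member in each library minus the member's mean over 8 libraries, named Qk-KO libraries left of named WT. Named Qk-KO 4 stands above the other named Qk-KO libraries in many members of low signal.

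Marker lists of several other cell types also had higher mean log2 values in named Qk-KO 4 than in named Qk-KO 1 to 3. Endothelial markers averaged 8.69 to 8.83 in named Qk-KO 1 to 3, 9.85 in named Qk-KO 4 and 8.98 to 9.85 in named WT libraries, and 11 of 12 had negative differences. Mural and fibroblast markers averaged 5.79 to 6.20, 7.25 and 6.47 to 7.09 in the same order, and 12 of 12 were negative. Astrocyte markers averaged 7.26 to 8.77, 10.12 and 8.85 to 10.18, and 12 of 12 were negative. Oligodendrocyte markers averaged 5.37 to 5.49, 7.52 and 5.69 to 7.68, and 11 of 12 were negative. Named WT 4 also stood apart for these markers, with 7.68 against 5.69 to 5.93 in named WT 1 to 3. No marker of any list was at 0, and the part of these cell types in the differences was not tested. Neuron markers averaged 4.72 to 5.03, 5.85 and 5.33 to 5.90, and oligodendrocyte precursor markers, which share Pdgfra and Cspg4 with the mural and fibroblast list, 4.87 to 5.17, 6.82 and 5.26 to 6.96, the last value again in named WT 4. By summed signal the precursor list was lowest in named Qk-KO 4, at 9205 against 11208 to 12787 in named Qk-KO 1 to 3. The mural and fibroblast list summed to 11562 in named Qk-KO 4, against 11543 to 13251. Cspg4, with a mean signal of 11329, was the most abundant marker of both lists. Border macrophage markers averaged 9.23 to 9.35, 9.67 and 9.16 to 9.69. Monocyte and neutrophil markers, at 7.85 to 8.28, 7.17 and 6.73 to 9.59, and lymphocyte markers, at 5.45 to 5.83, 5.49 and 5.42 to 5.90, were not higher in named Qk-KO 4. Differences were also negative in 11 of 12 neuron, 12 of 12 oligodendrocyte precursor and 10 of 12 monocyte and neutrophil markers. They were negative in 8 of 10 border macrophage and 7 of 12 lymphocyte markers, and in 51.2% of all genes.

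**Figure D5:**
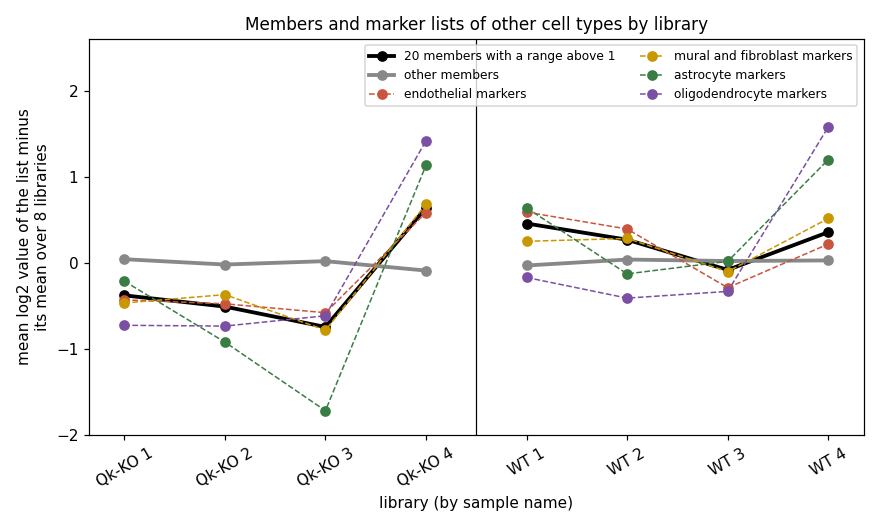
Mean log2 value of the 20 members with a wide range, the 22 others and marker lists of other cell types in each library, minus each list's mean over 8 libraries. Lines join libraries within a named group only. The wide-range members and the endothelial, mural and astrocyte lists are higher in named Qk-KO 4 than in named Qk-KO 1 to 3.

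Named Qk-KO 4 was set apart here after its values were seen. It was the highest of the named Qk-KO libraries in 21 of 42 members, so leaving it out lowers the named Qk-KO mean of those members. The counts without it are descriptions only. Without named Qk-KO 4, 21 members had an unadjusted p under 0.05, against 16.4% of all genes (6.61% higher, 9.82% lower) and 19.7% of those with a mean signal of at least 50. They were 3 higher (Plxna1, Unc5a and Plxnc1) and 18 lower. No member passed the adjusted threshold by limma (smallest adjusted p 0.0725), and 0.031% of all genes did. The groups did not overlap in 2 members that were higher and 14 that were lower, against 7.13% and 8.58% of all genes, 15.7% in both directions. The members' median was -0.21, against -0.005 over all genes, where 51.0% of differences were negative. With named WT 4 left out as well, a choice made after the data were seen, 20 members had an unadjusted p under 0.05 (4 higher, 16 lower), against 13.5% of all genes, and none passed the adjusted threshold by limma (smallest adjusted p 0.105).

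The co-receptors, adaptors and cytoskeletal effectors of these pathways, 85 genes outside the group, gave no call by limma (smallest adjusted p 0.345), 10 at an unadjusted p under 0.05 (1 higher, 9 lower) and a median of -0.08. Over all genes 8.26% had an unadjusted p under 0.05, and 10.1% of those with a mean signal of at least 50. In the authors' deposited table, where 1.22% of all genes were called and 0.671% were lower, 3 of 75 fell: Vav2, which acts below Eph receptors, by 0.28; Wasf2, which drives actin branching, by 0.30; and Cfl1, the actin-severing cofilin, by 0.26 on the log2 scale, with adjusted p-values of 0.0191, 0.0228 and 0.0444. Rac1, the GTPase below plexins, had 12.95, 13.09, 14.08 and 14.14 in named Qk-KO 1 to 4, against 14.28, 14.22, 14.22 and 14.28 in named WT 1 to 4. Its named Qk-KO libraries formed a low and a higher pair, both below named WT. The difference was -0.69 (adjusted p 0.585 by limma). Rgma, Gpc1 and Nck2 differed by -0.78, -0.74 and -0.68, with adjusted p-values of 0.714, 0.603 and 0.672 by limma.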

How the data were processed

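Per the submitters' processing notes, FastQC, HISAT2, StringTie, DESeq2 and mm10 were used; no source used here gives versions or roles. The authors deposited log2 values per library, read from their behaviour as regularized and so shrunken at low counts, and a mean signal over libraries after depth scaling. The remaining columns, per the file headers, are the authors' log2 fold change, its error, a test statistic (a score), p-value and adjusted p-value. Counts per library were not used here. Differences were tested with limma 3.58.1 in R 4.3.3 (intensity trend, robust) on the deposited log2 values, with no pseudocount, in 22546 genes whose log2 value reached 0 in 4 or more libraries, with Benjamini-Hochberg adjustment over all of them. The fit was tested on simulated data.

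Relative depth came from genes seen in a single library. Their scaled values were whole multiples (within 0.01) of the smallest one in 100.0% of cases, which was taken as 1 read. The most common value equalled 2 such reads. It had been tried first as the unit and gave 55.4% to 68.2% whole values. Sequencing totals per library remain unknown.

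Members and gene lists were chosen with earlier results of these data known. Named members were those called in the authors' table or by limma, the 12 with the highest mean signal, the 8 largest differences by name, the 3 by genotype field, those beside the limit, and the most abundant of each role. Named partners were those called by the authors and the 4 largest differences. Alternatives changed the filter, variance model, centring, block, grouping, signal limit and libraries. Levels per kb and positions used GENCODE M21 exons.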

Additional observations from a re-analysis of the deposited data

Results flagged for a closer look

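In 7 of the 84 groups of 4 libraries (42 members under each name), 1 library lay far from the other 3, by a gap to its nearest neighbour divided by the whole range above the 95% critical value of Dixon. Chance gives about 1 in 20 groups, but the members share the same libraries, so the 84 groups are not independent. Sema4g had a log2 value of 10.67 in named Qk-KO 4, against 10.95 to 10.99 in the other 3 libraries of that name, a ratio of 0.882. Plxna2 had a log2 value of 9.58 in named Qk-KO 3, against 9.30 to 9.34 in the other 3 libraries of that name, a ratio of 0.882. Sema3g had a log2 value of 10.01 in named Qk-KO 4, against 8.09 to 8.39 in the other 3 libraries of that name, a ratio of 0.848. Efnb1 had a log2 value of 9.25 in named WT 1, against 9.29 to 9.30 in the other 3 libraries of that name, a ratio of 0.868. Sema3c had a log2 value of 8.23 in named Qk-KO 4, against 6.50 to 6.78 in the other 3 libraries of that name, a ratio of 0.84. Efnb2 had a log2 value of 7.81 in named WT 1, against 7.37 to 7.43 in the other 3 libraries of that name, a ratio of 0.882. Epha4 had a log2 value of 7.30 in named Qk-KO 4, against 6.03 to 6.20 in the other 3 libraries of that name, a ratio of 0.869. Of the 7 libraries so marked, 4 were named Qk-KO 4. Plxna2, Sema3c, Epha4 and Efnb2 are outside the rule for named members and were singled out after their values were seen.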

How the results depend on the processing

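No member or partner passed adjusted p under 0.05 by limma under any alternative run. The count of members at an unadjusted p under 0.05, 4 as reported, was 13 with the replicate block and 1 with a mean signal limit of 200. Leaving out 1 library each gave 4 to 21: the count was 21 when named Qk-KO 4 was dropped and 8 when named WT 3 was dropped. Leaving out both libraries numbered 4, chosen after seeing the data, gave 20, and turned Nrp2 to 0.00608 and Unc50 to -0.0308. The median difference of -0.17 was 0.0194 by genotype field, -0.0959 with median centring, -0.0862 with a mean signal limit of 200, and -0.21 to -0.11 with 1 library left out. Members called in the authors' deposited table numbered 3, and 1 with a limit of 200. Of 24 named members, 18 changed sign under some alternative. By genotype field Plxna1 was -0.0749, Unc5a -0.0180, Nrp1 -0.0451, Sema4d -0.145, Plxnd1 0.44, Plxnc1 -0.0382, Plxnb1 0.25, Sema3g 0.31, Ntn1 0.27, Unc5b 0.14, Ephb6 0.80, Sema3b 0.56, Efna1 0.10 and Efnb1 0.13. Median centring turned Plxnb2 to 0.0400, Nrp2 to 0.0417 and Plxna4 to 0.0455, and quantile normalization turned Nrp1 to -0.0732 and Unc50 to -0.0056. With 1 library left out, Nrp1 ranged from -0.0252 to 0.0710, Sema4d from -0.0208 to 0.126, Nrp2 from -0.0846 to 0.0293, Plxna4 from -0.115 to 0.0277 and Unc50 from -0.0538 to 0.0326. The cause was not tested.

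The labels do not say that a shared number pairs libraries, so numbers were not used as pairs. The correlations of same-numbered libraries' deviations from the group means were 0.0499, 0.1443, 0.2769 and 0.4585 for numbers 1 to 4 over 13754 genes. Named Qk-KO 2, 3 and 4 correlated best with their own number and named Qk-KO 1 with named WT 3, a hint from the data and not from the design. Depth was lower in every named Qk-KO library than in any named WT library.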

Other observations

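Plxna4os1, an antisense transcript at the Plxna4 locus that is not a member, had a mean signal of 467. Its log2 values were 8.83, 8.84, 8.61 and 8.84 in named Qk-KO 1 to 4, against 8.97, 8.78, 8.94 and 9.07 in named WT 1 to 4, and the groups overlapped. The difference was -0.16 ± 0.10 (SE, n = 4 each), with an adjusted p of 0.681 by limma.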
